A study of Mus musculus with 12 samples.

Results

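The genes described here are 30 genes of the lysosome in myeloid cells of the mouse paw, 30 of 55401 gene entries counted in the series. They were taken by name from both normalized count tables. They comprise 10 proteases (Tpp1, Ctsa, Ctsb, Ctsc, Ctsd, Ctsh, Ctsl, Ctss, Ctsz, Lgmn), 6 membrane proteins (Lamp1, Lamp2, Cd63, Cd68, Laptm5, Scarb2) and 3 hydrolase cofactors (Psap, Grn, Gm2a). The others are 5 sugar and lipid hydrolases (Gaa, Gusb, Hexa, Lipa, Asah1), 3 cholesterol carriers or channels (Npc1, Npc2, Mcoln1), 2 proton pump subunits (Atp6v0d1, Atp6v1a) and 1 regulator (Tfeb).

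The cells were CD45+/CD11b+/Ly6G-, a gate that keeps monocytes and macrophages and removes neutrophils, and were sorted 4 h after injection of the paw. The control mice were FABP5Flox, named Flox below, and the conditional knockouts, named cKO, were FABP5Flox/LysM-Cre. Both genotypes carry the Fabp5 allele that Cre can delete. They received sterile saline or 1% carrageenan, a seaweed polysaccharide that provokes acute inflammation. The 4 groups were thus Flox saline, Flox carrageenan, cKO saline and cKO carrageenan, with 3 libraries each (n = 3) and 3 or 4 mice pooled in a library. Cre is expressed from the lysozyme gene Lyz2 in myeloid cells, and no group carried LysM-Cre alone, so that the Cre, its Lyz2 allele and the targeting of Fabp5 cannot be told apart. Libraries are named by the mouse numbers of their pool (Flox 1-3, 4-7 and 8-10, cKO 1-4, 5-8 and 9-12), and values are always listed in that order. The same numbers occur under saline and under carrageenan in both genotypes.

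Lysosomes are acidic organelles in which macrophages digest what they engulf. A proton pump acidifies them, soluble hydrolases break down protein, sugar chains and lipids, and membrane proteins shield the envelope and carry products out. The transcription factor TFEB, encoded by Tfeb, is known to switch on many of these genes through a short promoter element that contains CACGTG, and monocytes that become tissue macrophages are known to build up their lysosomes.

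Promoters of the genes were read from RefSeq on GRCm38.p6, from 250 bases before the transcript start to 50 bases after it, and 26 of the 30 genes had at least 1 entry (31 promoters). The letters CACGTG, which read the same on both strands, occurred in 9 of the 31 promoters (29.0%) and in 7.15% of all 32851 promoters of that length. The longer form TCACGTGA, which contains CACGTG, occurred in 5 of 31 (16.1%) against 0.974%, in promoters of Atp6v0d1, Atp6v1a, Ctsa, Ctsd and Mcoln1. With a further G before it and C after it, the form occurred in 0 of 31, against 0.326% of all. The following promoters are shown because Mcoln1, Ctsd and Atp6v1a hold the longer form, Lgmn the short form in 1 of its 2 promoters, and Lipa, with the largest fall of the 30 genes after carrageenan, neither. Capitals mark the motif, and each sequence is written from 5′ to 3′ on the strand of the gene.
Mcoln1 (chr8:3500269-3500568, plus strand): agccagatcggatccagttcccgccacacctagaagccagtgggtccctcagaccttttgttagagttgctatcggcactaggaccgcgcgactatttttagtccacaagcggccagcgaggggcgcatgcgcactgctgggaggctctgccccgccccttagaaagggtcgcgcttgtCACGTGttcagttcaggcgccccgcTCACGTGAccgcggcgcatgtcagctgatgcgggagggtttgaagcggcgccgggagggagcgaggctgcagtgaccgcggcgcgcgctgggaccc
Ctsd (chr7:142387778-142388077, minus strand): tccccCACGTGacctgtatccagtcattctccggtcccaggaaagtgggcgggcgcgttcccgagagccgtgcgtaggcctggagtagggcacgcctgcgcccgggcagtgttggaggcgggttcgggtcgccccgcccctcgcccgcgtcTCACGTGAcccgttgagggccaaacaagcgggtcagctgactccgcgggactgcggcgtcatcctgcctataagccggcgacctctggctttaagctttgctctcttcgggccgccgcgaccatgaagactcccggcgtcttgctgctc
Atp6v1a (chr16:44139210-44139509, minus strand): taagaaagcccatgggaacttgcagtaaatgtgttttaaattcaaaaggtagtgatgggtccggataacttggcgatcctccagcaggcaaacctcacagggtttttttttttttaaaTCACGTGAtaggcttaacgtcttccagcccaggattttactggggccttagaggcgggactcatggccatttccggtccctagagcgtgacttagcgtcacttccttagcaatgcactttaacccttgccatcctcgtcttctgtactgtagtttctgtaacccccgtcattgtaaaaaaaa
Lgmn (chr12:102439043-102439342, minus strand): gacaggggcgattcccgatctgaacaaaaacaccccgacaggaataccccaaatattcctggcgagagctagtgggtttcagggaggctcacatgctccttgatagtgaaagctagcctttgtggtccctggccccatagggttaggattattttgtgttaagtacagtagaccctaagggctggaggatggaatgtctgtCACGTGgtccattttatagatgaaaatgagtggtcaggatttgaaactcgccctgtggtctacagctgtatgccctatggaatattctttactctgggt
Lipa (chr19:34527425-34527724, minus strand): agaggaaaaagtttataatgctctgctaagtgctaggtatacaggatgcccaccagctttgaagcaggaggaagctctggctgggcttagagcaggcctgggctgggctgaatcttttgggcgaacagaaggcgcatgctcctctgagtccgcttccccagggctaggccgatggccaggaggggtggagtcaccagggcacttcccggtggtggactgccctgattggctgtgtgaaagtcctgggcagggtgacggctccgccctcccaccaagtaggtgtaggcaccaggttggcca
A match of letters is a description and not a binding site.

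The shallowest library, Flox saline 1-3, held 111925 gene reads and the deepest, cKO saline 5-8, held 2987015. Flox libraries reached 994161 reads at most, and cKO libraries held at least 508407, so that depth went with genotype and the effects of depth and genotype cannot be fully told apart. Across all genes 2 libraries stood apart on principal components, Flox saline 1-3, in which a single read equalled 5.51 normalized counts, and cKO carrageenan 9-12, which lay on the second component at 42.2 against -17.9 and -8.94 for the other cKO carrageenan libraries. Flox carrageenan 4-7 also lay far out on that component, at 108.5 against 57.0 and 24.2 in its group. As a check of the labels, Fabp5 stood at 5.51, 35.0 and 22.5 normalized counts in Flox saline, 44.3, 98.0 and 34.0 in Flox carrageenan, 6.08, 4.05 and 11.2 in cKO saline and 6.12, 11.5 and 23.0 in cKO carrageenan. Its levels in cKO lay below those in Flox without overlap after carrageenan, and overlapped after saline. Lyz2, which carries the Cre, ranged from 2933 to 5901 in Flox and from 1918 to 3496 in cKO. Since the libraries read 3′ ends, and no label places the deleted part of Fabp5, these reads may lie outside it and then check nothing. Markers of sorted myeloid cells summed to 8830 to 16814 CPM (reads scaled to one total per library), and those of lymphocytes and NK cells to 10.7 at most. Other cell types were read more: keratinocyte markers summed to 420 to 2402 CPM and fibroblast markers to 62.5 to 1620.

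The 30 genes took up 2.01, 2.29 and 2.34% of gene reads in Flox saline and 1.83, 1.99 and 1.93% in Flox carrageenan. In cKO their shares were 2.56, 2.86 and 2.40% in saline and 2.01, 2.22 and 2.11% in carrageenan. The carrageenan shares lay below the saline shares of the same genotype, without overlap. The cathepsins Ctsb and Ctss, the granulin precursor Grn, the small lysosomal membrane protein Laptm5 and the saposin precursor Psap together held 56.3% of these reads. Every one of the 30 passed the filter on low values in every comparison. The fewest reads were those of the glycogen-splitting enzyme Gaa (212 over all libraries) and of Tfeb (325). In Flox saline 1-3, Mcoln1 had 2 reads and Gaa and Tfeb 3 each.

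**Figure D1:**
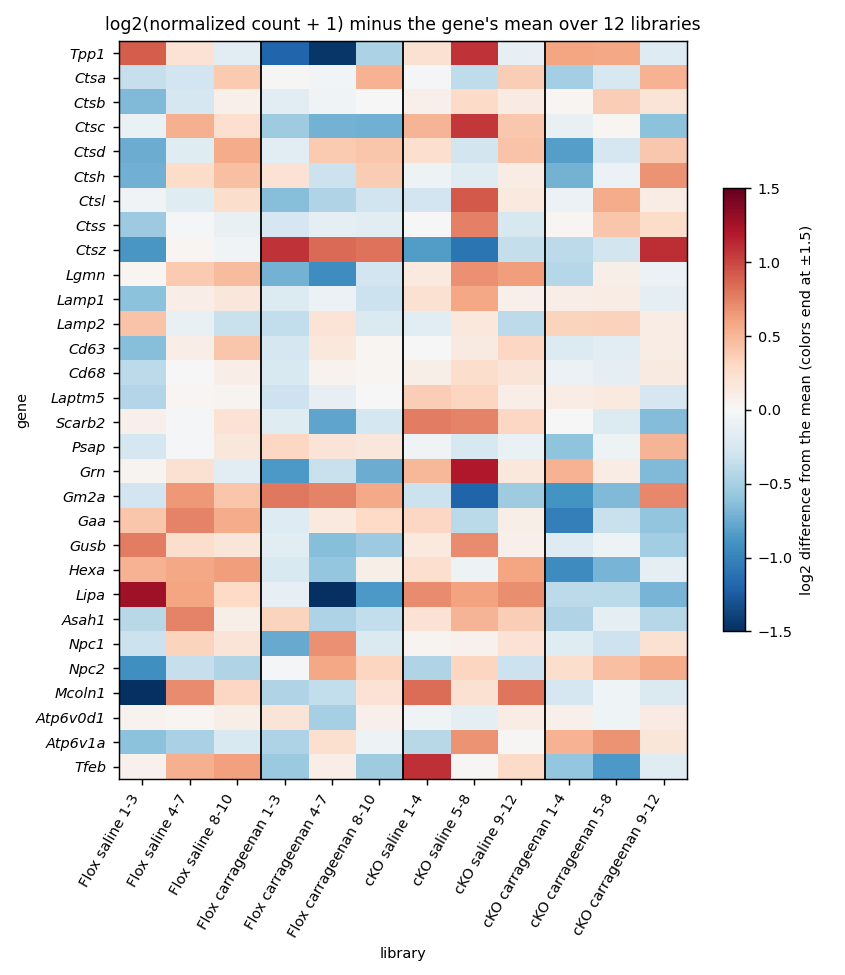
Level of each of the 30 lysosome genes (rows) in each of the 12 libraries (columns), as log2 of the normalized count plus 1 minus the gene's mean over all libraries, with colors ending at 1.5 in either direction. Lipa is above its mean in all 6 saline libraries and below it in all 6 carrageenan libraries, and the cKO carrageenan 9-12 library has a higher Ctsz and Gm2a than the other cKO carrageenan libraries.

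Carrageenan against saline asked how inflammation changed these genes. When the effect was averaged over both genotypes, 8 of the 30 genes changed, against 11.7% of the 10240 genes tested (limma, Benjamini-Hochberg adjusted p under 0.05 over all genes tested). Of these, 6 fell (4.86% of all genes fell): the lipase Lipa, the proteases Ctsc and Lgmn, the sugar hydrolases Hexa and Gusb, and the membrane protein Scarb2. The other two rose (6.8% of all genes rose): the protease Ctsz and the cholesterol carrier Npc2. This average was added after the results within each genotype had been seen. The median log2 fold change of the 30 genes was -0.16, beside 0.02 for all genes tested, and 20 of the 30 lay below 0.

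Within Flox, 3 of the 30 genes passed the test, 0 higher and 3 lower after carrageenan (7.17% of all genes passed, 4.42% as higher and 2.74% as lower). These were Lipa, Lgmn and Tpp1. Saline and carrageenan libraries did not overlap for 12 of the genes, 10 lower and 2 higher, while 23% of all genes tested did not overlap (13% higher, 9.97% lower). The 10 were Tpp1, Ctsc, Ctsl, Lgmn, Scarb2, Grn, Gaa, Gusb, Hexa and Lipa, and the others Ctsz and Npc2. The median log2 fold change was -0.10, beside 0.10 for all genes. Within cKO, none of the 30 passed (2.65% of all genes did, 2.1% as higher and 0.547% as lower), 8 had an unadjusted p under 0.05 (11% of all genes), edgeR called 1 (Lipa; 7.16% of all genes) and DESeq2 called 4 (Lipa, Ctsc, Scarb2 and Hexa; 8.11% of all genes with an adjusted p). Groups did not overlap for 9 genes in cKO, all of them lower, against 29.6% of all genes (12.6% higher, 17% lower). The median there was -0.22, beside -0.07 for all genes. Ctsc, Lgmn, Scarb2, Gusb, Hexa and Lipa were lower without overlap in both genotypes, which is 50% of the 12 in Flox and 66.7% of the 9 in cKO. The matching share over all genes was not counted, so this sharing cannot be read as particular to the 30 genes.

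**Figure D2:**
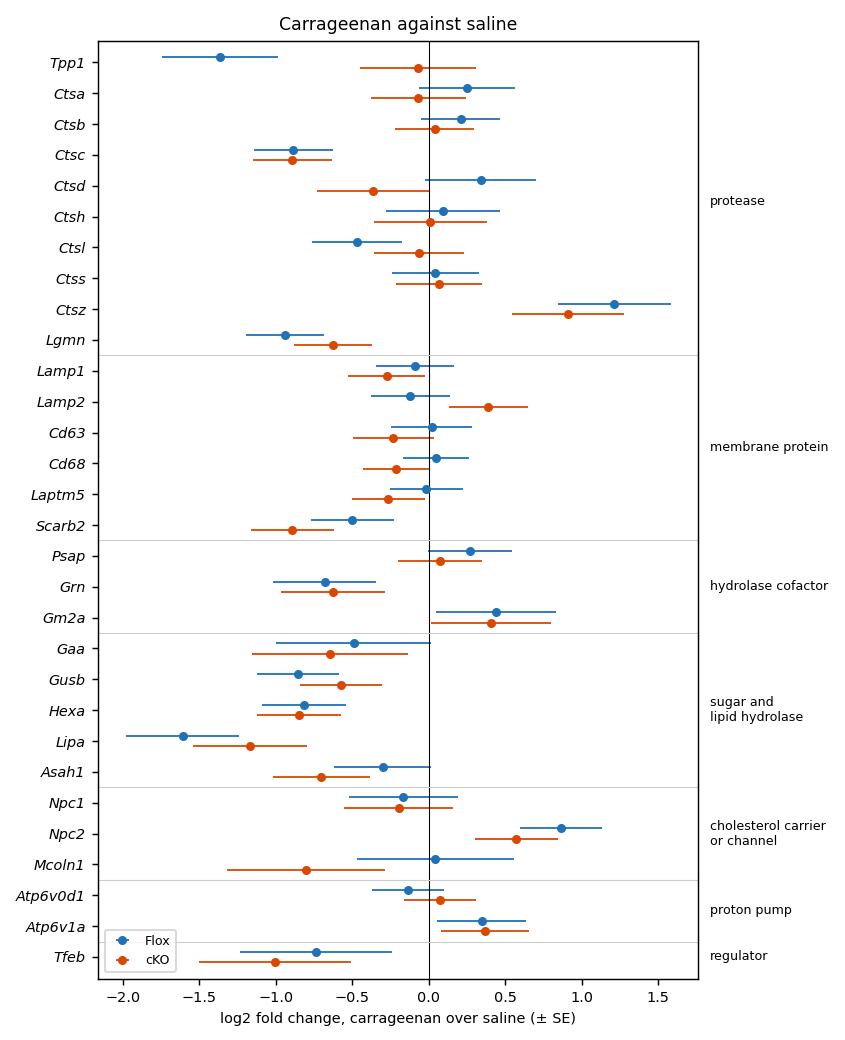
Log2 fold change of carrageenan over saline (horizontal axis, bars ± SE) for the 30 lysosome genes in Flox (blue) and cKO (orange), grouped by role, with 3 libraries a group. All 5 sugar and lipid hydrolases lie below 0 in both genotypes, and Tpp1 lies at -1.36 in Flox and -0.07 in cKO.

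Among the role groups of 2 or more genes the sugar and lipid hydrolases had the lowest median, with all 5 below 0 in both genotypes, on the common and on the deposited scale, and a median of -0.71 averaged over genotypes. Lipa encodes the acid lipase that frees cholesterol and fatty acids from lipoprotein lipids. It stood at 165, 103 and 83.6 normalized counts in Flox saline and 62.5, 20.3 and 37.0 in Flox carrageenan. In cKO it stood at 111, 103 and 111 in saline and 51.6, 51.0 and 41.4 in carrageenan. Every carrageenan library of either genotype was below every saline library, a separation of all 12 libraries that was found for 7.74% of all genes (4.64% higher, 3.11% lower) and for 2 of the 30, Lipa and Gusb. Lipa fell over both genotypes (log2 fold change -1.39 ± 0.26 (SE), limma adjusted p = 0.00289), and its values were -1.61 ± 0.37 in Flox (adjusted p = 0.0175) and -1.17 ± 0.37 in cKO (adjusted p = 0.146). Leaving out Flox carrageenan 4-7, where Lipa had 6 reads, ended the call within Flox (-1.21, adjusted p = 0.0720). The averaged call held in all 19 alternatives.

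Hexa encodes a subunit of the hexosaminidase that trims gangliosides. It stood at 232, 242 and 251 in Flox saline and 138, 108 and 171 in Flox carrageenan, and at 193, 153 and 243 in cKO saline and 83.6, 99.2 and 147 in cKO carrageenan. Within each genotype the carrageenan libraries were all lower than the saline libraries, although the highest carrageenan library of Flox exceeded the lowest saline library of cKO. Hexa fell over both genotypes (-0.83 ± 0.19, limma adjusted p = 0.0107), and was at -0.82 ± 0.27 in Flox and -0.85 ± 0.27 in cKO, neither past the threshold (adjusted p = 0.0869 and 0.153). Gusb, which encodes the beta-glucuronidase that degrades glycosaminoglycans, stood at 226, 158 and 150.0 in Flox saline and 117, 84.5 and 90.6 in Flox carrageenan, and at 146, 217 and 139.9 in cKO saline and 116, 125 and 92.1 in cKO carrageenan. As for Lipa, all 6 carrageenan libraries were below all 6 saline libraries. Gusb fell over both genotypes (-0.71 ± 0.19, limma adjusted p = 0.0224), a call that was lost in 4 of 19 alternatives, among them those without Flox carrageenan 4-7, cKO saline 5-8 or cKO carrageenan 9-12 (adjusted p up to 0.0642). The acid ceramidase gene Asah1 was at -0.70 ± 0.32 in cKO, with no overlap (adjusted p = 0.424), and at -0.30 ± 0.32 in Flox. Gaa was at -0.57 ± 0.36 over both genotypes (adjusted p = 0.368).

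Among the 10 proteases, 2 fell, 1 rose and 7 did not pass over both genotypes. Ctsc encodes the dipeptidyl peptidase that activates serine proteases of granules. It stood at 634, 979 and 804 in Flox saline and 466, 412 and 412 in Flox carrageenan, and at 968, 1413 and 896 in cKO saline and 629, 691 and 442 in cKO carrageenan. Its saline and carrageenan libraries did not overlap in either genotype, and cKO carrageenan 9-12 was the lowest of its group. Ctsc fell over both genotypes (-0.89 ± 0.18, limma adjusted p = 0.00537), with nearly the same value in Flox (-0.88, adjusted p = 0.0541) and in cKO (-0.89, adjusted p = 0.103), and the averaged call held in all 19 alternatives.

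Lgmn encodes legumain, an asparagine-specific protease that processes cathepsins. It stood at 540.3, 692 and 734 in Flox saline and 323, 277 and 432 in Flox carrageenan, and at 587, 853 and 814 in cKO saline and 394, 564 and 499 in cKO carrageenan. As for Ctsc, saline and carrageenan did not overlap in either genotype. Lgmn fell over both genotypes (-0.78 ± 0.18, limma adjusted p = 0.00967) and in Flox (-0.94 ± 0.25, adjusted p = 0.0368), and was at -0.63 ± 0.25 in cKO (adjusted p = 0.316). The averaged call held in all 19 alternatives, and the call in Flox was lost in 8 of 19 (adjusted p up to 0.140), 6 of them without 1 library each, Flox saline 4-7 or 8-10, Flox carrageenan 1-3 or 4-7, cKO saline 9-12 or cKO carrageenan 5-8.

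Tpp1 encodes a tripeptidyl peptidase that removes tripeptides from the ends of proteins. It stood at 248, 154 and 118 in Flox saline and 57.3, 47.3 and 94.4 in Flox carrageenan, and at 154, 281 and 121 in cKO saline and 199.8, 198 and 115 in cKO carrageenan. The Flox groups did not overlap, and the cKO groups did. Tpp1 fell in Flox (-1.36 ± 0.38, limma adjusted p = 0.0433) and was at -0.07 ± 0.38 in cKO (adjusted p = 0.997). The call in Flox was lost in 10 of 19 alternatives, for example without Flox saline 1-3 (-1.07, adjusted p = 0.106), without Flox carrageenan 4-7 (-1.16, 0.160) and with edgeR (-1.24, 0.0596), and also without Flox saline 4-7, Flox carrageenan 1-3, cKO saline 1-4, or cKO carrageenan 1-4 or 5-8.

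Ctsz, which encodes a carboxypeptidase, went the other way. It stood at 171, 319 and 303 in Flox saline and 664, 568 and 552 in Flox carrageenan, and at 175, 146 and 245 in cKO saline and 239, 260.1 and 677 in cKO carrageenan. The Flox groups did not overlap, and in cKO only the carrageenan 9-12 library reached the levels of Flox carrageenan. Ctsz rose over both genotypes (1.06 ± 0.26, limma adjusted p = 0.0147, called in all 19 alternatives), with 1.21 ± 0.37 in Flox (adjusted p = 0.0607) and 0.91 ± 0.37 in cKO (adjusted p = 0.315). Without both libraries that stood apart the averaged value was 0.68. The gene overlaps Nelfcd on the opposite strand in the GENCODE annotation, and whether reads were counted by strand is not stated by any label. The remaining proteases did not pass. Ctsa, Ctsb, Ctsd, Ctsh and Ctss, which include the abundantly read cathepsins B and S, had averaged values between -0.01 and 0.12, and Ctsl was at -0.26 ± 0.21. Ctsb and Ctsl share positions with antisense genes in the annotation, Fdft1 and Gm47123.

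**Figure D3:**
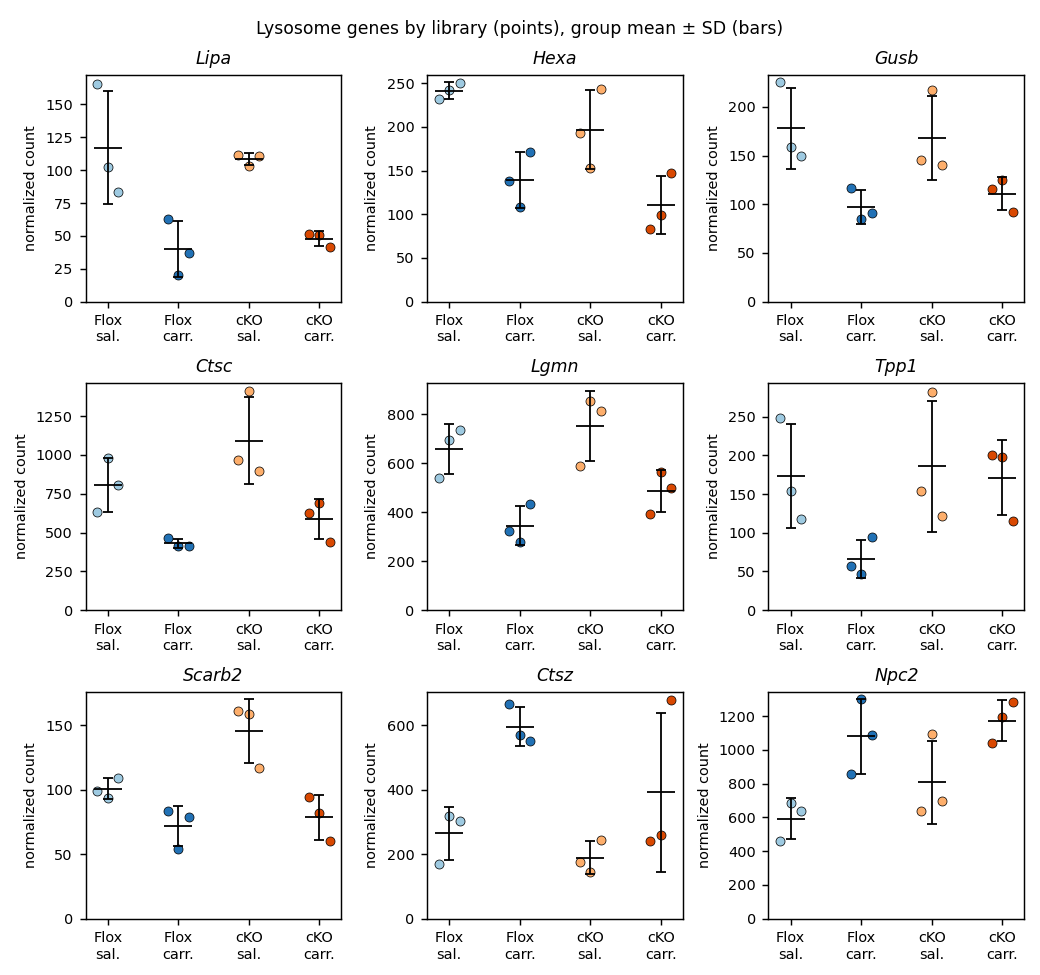
Normalized counts on the common scale (vertical axes, from 0) of 9 lysosome genes in each library (points) of the 4 groups (sal., saline; carr., carrageenan), with group mean ± SD (bars, n = 3). Lipa and Gusb are lower in all 6 carrageenan libraries than in all 6 saline libraries, Tpp1 is low in Flox carrageenan alone (47.3 to 94.4), and 1 cKO carrageenan library carries the high Ctsz (677).

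Of the 6 membrane proteins, 1 fell and 5 did not pass. Scarb2 encodes the carrier that brings beta-glucocerebrosidase to the lysosome. It stood at 99.2, 93.2 and 109 in Flox saline and 83.3, 54.1 and 78.5 in Flox carrageenan, and at 161, 158 and 117 in cKO saline and 94.1, 81.6 and 59.8 in cKO carrageenan. The groups did not overlap in either genotype. Scarb2 fell over both genotypes (-0.69 ± 0.19, limma adjusted p = 0.0285), with -0.50 ± 0.27 in Flox (adjusted p = 0.291) and -0.89 ± 0.27 in cKO (adjusted p = 0.124). Its averaged call was lost in 7 of 19 alternatives (adjusted p up to 0.0871), those without Flox saline 8-10, Flox carrageenan 4-7, cKO saline 1-4 or 5-8, or cKO carrageenan 5-8 or 9-12, and with no filter on low values.

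Lamp1 encodes an abundant protein of the lysosomal membrane. It stood at 551, 904 and 948 in Flox saline and 729, 794 and 677 in Flox carrageenan, and at 984, 1264 and 891 in cKO saline and 902, 909 and 764 in cKO carrageenan. Its groups overlapped in both genotypes (averaged value -0.18 ± 0.18, limma adjusted p = 0.584). Lamp2 (0.14), the tetraspanin Cd63 (-0.10), the macrophage sialomucin Cd68 (-0.08) and Laptm5 (-0.14) did not pass either. Cd68 varied least among replicate libraries of all 30 genes, with a pooled SD of 0.18 on the log2 scale, and Mcoln1 varied most, at 0.71.

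None of the 3 cofactors passed. Grn, whose product yields granulins that support lysosomal enzymes, stood at 1814, 2064 and 1558 in Flox saline and 963, 1395 and 1052 in Flox carrageenan, and at 2488, 4051 and 1955 in cKO saline and 2528, 1903 and 1111 in cKO carrageenan. The Flox groups did not overlap, and in cKO the 1-4 carrageenan library lay above 2 saline libraries. The averaged value of Grn was -0.65 ± 0.24 (limma adjusted p = 0.102; DESeq2, 0.0409). Gm2a, whose product lifts ganglioside GM2 from membranes for the hexosaminidase, stood at 99.2, 191 and 162 in Flox saline and 211, 203 and 180.5 in Flox carrageenan, and at 97.0, 51.9 and 83.5 in cKO saline and 64.6, 76.0 and 201 in cKO carrageenan. Within cKO carrageenan the 9-12 library lay far above the other two, and the averaged value was 0.42 ± 0.28 (adjusted p = 0.389). Psap was at 0.17 ± 0.19 (adjusted p = 0.644).

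Of the cholesterol carriers and channels, Npc2 rose. Its product is the soluble protein that hands cholesterol to the membrane protein NPC1. Npc2 stood at 458, 685 and 638 in Flox saline and 857, 1301 and 1087 in Flox carrageenan, and at 638, 1092 and 695 in cKO saline and 1044, 1193 and 1284 in cKO carrageenan. The Flox groups did not overlap, and in cKO the saline 5-8 library lay within the carrageenan range. Npc2 rose over both genotypes (0.72 ± 0.19, limma adjusted p = 0.0225), a call lost in 5 of 19 alternatives (adjusted p up to 0.0742), those on the deposited scale and without Flox carrageenan 4-7, cKO saline 1-4 or 9-12, or cKO carrageenan 5-8. In Flox its value was 0.87 ± 0.27 (adjusted p = 0.0672) and in cKO 0.57 ± 0.27 (adjusted p = 0.46). Its partner Npc1 was at -0.18 ± 0.25 (adjusted p = 0.711). Mcoln1, which encodes a calcium channel of the lysosome, stood at 11.0, 65.2 and 49.3 in Flox saline and 28.6, 30.4 and 46.1 in Flox carrageenan, and at 71.3, 46.6 and 69.4 in cKO saline and 33.0, 37.7 and 33.8 in cKO carrageenan. It was lower without overlap in cKO (-0.80 ± 0.51, adjusted p = 0.736), while in Flox the 2 reads of the 1-3 saline library set the low end of a wide range.

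Neither proton pump subunit passed. Atp6v1a, the catalytic subunit, stood at 149, 163 and 195 in Flox saline and 167, 270.3 and 217 in Flox carrageenan, and at 171, 365 and 232 in cKO saline and 329, 367 and 259 in cKO carrageenan. Atp6v0d1, a subunit of the membrane part, stood at 149, 147 and 152 in Flox saline and 164, 101 and 151 in Flox carrageenan, and at 138, 129.6 and 155 in cKO saline and 151, 137 and 156 in cKO carrageenan. Saline and carrageenan overlapped for both in both genotypes (averaged values 0.36 ± 0.20 and -0.03 ± 0.17, limma adjusted p = 0.315 and 0.935). The regulator Tfeb was read sparsely, at 16.5, 23.3 and 24.6 in Flox saline, 10.4, 16.9 and 10.6 in Flox carrageenan, 34.8, 15.95 and 19.4 in cKO saline and 10.2, 8.25 and 13.8 in cKO carrageenan. Its averaged value was -0.87 ± 0.35 (limma adjusted p = 0.137), and it was called by edgeR (-1.06, adjusted p = 0.0373) and DESeq2 (-1.06, 0.0357).

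Markers of cell types also moved with treatment. Summed markers of resident macrophages (16 genes) were at 17816 to 21297 CPM in Flox saline and at 4427 to 5767 in Flox carrageenan. In cKO they were at 22307 to 28103 in saline and 5832 to 13137 in carrageenan. Averaged over genotypes, 14 of these 16 genes fell and 2 did not pass (4.86% of all genes fell). Summed inflammatory monocyte markers (11 genes) were at 1524 to 2864 and 8764 to 11576 in Flox, and at 1279 to 1965 and 3375 to 12285 in cKO. Of the 11 genes, 9 rose over both genotypes (6.8% of all genes rose). Neutrophil markers (14 genes) summed to 50.9 to 113 in Flox saline and 531 to 967 in Flox carrageenan, and to 26.8 to 55.0 and 184 to 897 in cKO. Of the 7 that could be tested, 5 rose over both genotypes and 2 did not pass. Ngp and Camp had no read and Ly6g 4 reads in all libraries together. Fibroblast markers (8 genes) were at 62.5 to 835 in Flox saline and 984 to 1620 in Flox carrageenan, and at 398 to 966 in cKO saline and 892 to 1330 in cKO carrageenan, where the groups overlapped. Of the 8, 3 rose over both genotypes, 2 within Flox and 0 within cKO (4.42% of all genes rose within Flox and 2.1% within cKO). The marker lists were chosen with earlier results of these data known. The part of these markers in the differences of the lysosome genes was not tested. In sorted bulk cells, fewer cells of a type and less RNA per cell cannot be told apart.

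**Figure D4:**
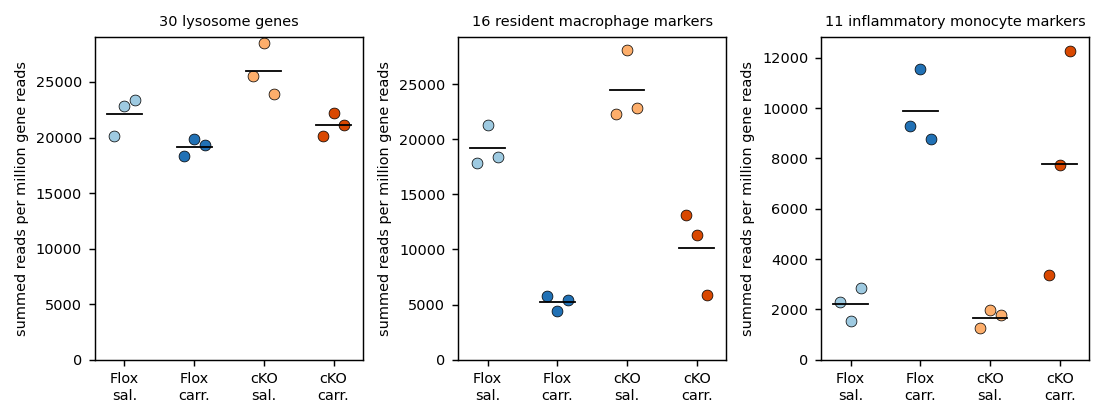
Summed CPM (vertical axes, from 0) of the 30 lysosome genes, 16 resident macrophage markers and 11 inflammatory monocyte markers, by library (points) with the group mean (line); sal. is saline and carr. carrageenan. Resident macrophage markers are at 17816 or more in Flox saline and at 5767 or less in Flox carrageenan, while the cKO carrageenan libraries spread from 5832 to 13137.

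Other genes of the pathway, taken from lists of the lysosome's parts, numbered 127, of which 118 were tested in the treatment contrasts. In Flox 7 were higher (5.93%, beside 4.42% of all genes) and 4 lower (3.39%, beside 2.74%). In cKO 1 was higher (0.847%, beside 2.1%) and 2 lower (1.69%, beside 0.547%). Over both genotypes 9 rose (7.63%, beside 6.8%) and 6 fell (5.08%, beside 4.86%). Among 33 other lysosomal hydrolases tested, 2 rose and 3 fell over both genotypes. The alpha-galactosidase gene Gla went from 39.0 ± 8.59 to 93.0 ± 28.5 normalized counts (mean ± SD, 6 libraries each; 1.21 ± 0.23, limma adjusted p = 0.00329). The acid phosphatase gene Acp5 also rose (1.79 ± 0.39, adjusted p = 0.00695), and the alpha-mannosidase gene Man2b1 fell from 314 ± 84.2 to 186 ± 13.5 (-0.71 ± 0.16, adjusted p = 0.00945). The median of these hydrolases was -0.32, with 24 of 33 below 0.

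In the other lists, the carriers and sorting genes moved in both directions. The two-pore channel gene Tpcn1 fell from 123 ± 33.2 to 23.6 ± 13.9 (-2.50 ± 0.31, limma adjusted p = 0.000134) and passed in both genotypes. The peptide and histidine transporter gene Slc15a3 rose from 94.5 ± 50.6 to 340.4 ± 131 (1.88 ± 0.29, adjusted p = 0.000708), also in both genotypes, and the metal transporter gene Slc11a2 rose over both (1.21 ± 0.27, adjusted p = 0.00865). Of 24 such membrane genes tested, 2 rose and 2 fell. Of 22 genes that deliver proteins to the lysosome, 3 rose and 1 fell. The adaptor subunit gene Ap1b1 fell from 260.2 ± 47.3 to 88.7 ± 15.4 (-1.54 ± 0.18, limma adjusted p = 9.23e-05), and the mannose 6-phosphate receptor gene M6pr rose from 151 ± 43.8 to 254 ± 24.9 (0.79 ± 0.18, adjusted p = 0.00902). The sorting receptor gene Sorl1 rose from 9.50 ± 7.10 to 55.0 ± 23.4 (2.74 ± 0.64, limma adjusted p = 0.0108). Of 16 other proton pump subunits 1 rose, Tcirg1 (1.34 ± 0.29, adjusted p = 0.00701), and of 20 regulators 1 rose, the folliculin partner Fnip2 (1.65 ± 0.32, adjusted p = 0.00325). None of the 3 tested cystatins, which inhibit cathepsins, passed (1 at an unadjusted p under 0.05, Cstb at 0.79, named after its value was seen).

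Within Flox, the hydrolase genes that passed were Gla (1.41 ± 0.33, limma adjusted p = 0.0185), Man2b1 (-0.87 ± 0.23, 0.0332) and the beta-mannosidase gene Manba, which went from 24.0 ± 14.5 to 3.27 ± 5.67 and so rests on few reads. Ap1b1 fell in Flox (-1.79 ± 0.25, limma adjusted p = 0.00121) and in cKO (-1.28 ± 0.25, 0.0151). Tpcn1 also fell in Flox (-2.78 ± 0.44, limma adjusted p = 0.00242) and in cKO (-2.23 ± 0.44, 0.0152). Slc15a3 rose in both (1.79 ± 0.41 and 1.97 ± 0.41, limma adjusted p = 0.0176 and 0.0203). The other genes that passed in Flox, all higher, were M6pr (1.00 ± 0.25), the sorting receptor genes Sort1 (2.91 ± 0.73) and Sorl1 (3.25 ± 0.90), Tcirg1 (1.71 ± 0.41) and Fnip2 (2.14 ± 0.45). In Flox saline Sort1 stood at 3.70 ± 3.32 and Sorl1 at 11.9 ± 10.4, so both changes also rest on few reads.

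The comparison of cKO with Flox after saline asked whether targeting Fabp5 altered the cells without inflammation. None of the 30 genes passed, nor did any of the 9371 genes tested (0%) in limma or edgeR, while DESeq2 called 19 genes, none of them among the 30. In limma, 1 of the 30 had an unadjusted p under 0.05 (5.42% of all genes). This was Gm2a, at 98.3, 199 and 172 in Flox and 101, 54.9 and 88.3 in cKO on the deposited scale (-0.92 ± 0.36, limma adjusted p = 0.683), with overlap. Groups did not overlap for 3 of the 30, 2 higher and 1 lower, against 15.6% of all genes (10.4% higher, 5.23% lower). Scarb2 was higher in cKO (168, 168 and 124) than in Flox (98.3, 97.2 and 116), with a log2 fold change of 0.55 ± 0.25 (limma adjusted p = 0.683). Laptm5 was higher as well (0.42 ± 0.29, adjusted p = 0.683) and Gaa lower (-0.55 ± 0.49, 0.707). The median of the 30 genes was 0.22, beside 0.25 for all genes tested. Keratinocyte markers (6 genes) summed to 420 to 968 CPM in Flox and 1071 to 2402 in cKO. Resident macrophage markers (16 genes) were at 17816 to 21297 in Flox and 22307 to 28103 in cKO. Endothelial and mural markers (7 genes) were at 0 to 29.8 and 41.8 to 101. Neutrophil markers leaned the other way with overlap, at 50.9 to 113 and 26.8 to 55.0. The part of these marker lists in the differences between genotypes was not tested.

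After carrageenan, again none of the 30 genes passed (0% of 9151 genes tested in limma, and none in edgeR either). DESeq2 called 11 genes, none of the 30, but gave an adjusted p to only 1742 of 19616 genes. Mcoln1, Npc1 and Gaa were among the genes without one, so DESeq2 could not call them. How many of the 30 had an adjusted p from DESeq2 is not given here, so its lack of calls covers only part of them. In limma, 3 of the 30 had an unadjusted p under 0.05, against 9.8% of all genes, and groups did not overlap for 5, 4 higher and 1 lower, against 15.1% (8.87% higher, 6.19% lower). Tpp1 was at 55.8, 45.8 and 91.1 in Flox and 196, 192 and 112 in cKO on the deposited scale. Every cKO library was thus above every Flox library, with a log2 fold change of 1.38 ± 0.33 (limma adjusted p = 0.497). Ctsl was at 147, 167 and 184 in Flox and 218, 337 and 247 in cKO, also without overlap (0.66 ± 0.24, adjusted p = 0.497). Ctss (0.43 ± 0.22, adjusted p = 0.513) and Ctsb (0.28 ± 0.22, 0.632) were higher and Gaa (-0.72 ± 0.50, 0.581) lower without overlap. Gm2a was at 205, 196 and 174 in Flox and 63.4, 73.7 and 195 in cKO, where 1 library lay inside the Flox range (-0.97 ± 0.38). The median of the 30 genes was 0.13, beside 0.09 for all genes.

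These counts turned on 1 library. Without cKO carrageenan 9-12, 4 of the 30 genes passed, against 4.71% of the 8908 genes then tested. Tpp1 (1.64 ± 0.30, limma adjusted p = 0.0249) and Grn (0.98 ± 0.21, 0.0390) were then higher in cKO, and Gm2a (-1.47 ± 0.20, 0.00989) and Ctsz (-1.24 ± 0.17, 0.00966) were lower. Leaving out any of the other 5 libraries in turn left the count at 0. In that library inflammatory monocyte markers summed to 12285 CPM and resident macrophage markers to 5832, against 3375 and 7720, and 13137 and 11296, in the other cKO carrageenan libraries. Resident macrophage markers were at 4427 to 5767 in Flox carrageenan. Their part in these differences was not tested.

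**Figure D5:**
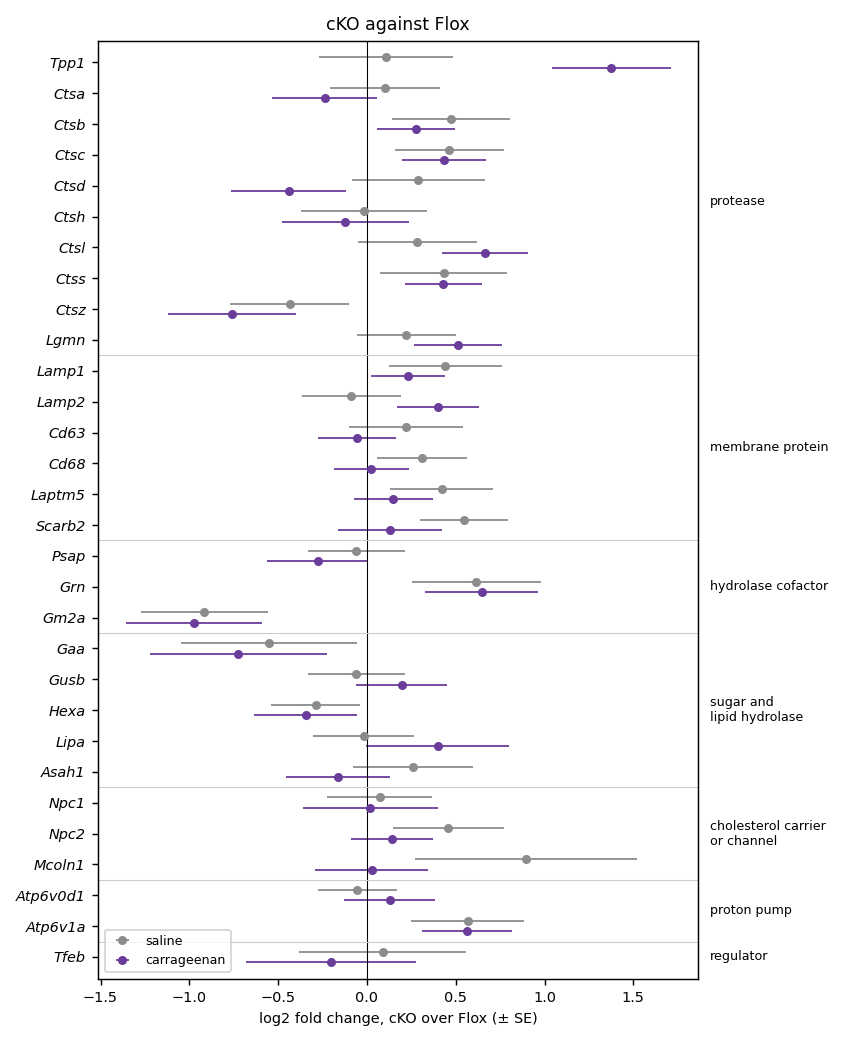
Log2 fold change of cKO over Flox (horizontal axis, bars ± SE) for the 30 lysosome genes after saline (grey) and after carrageenan (purple), each from 3 libraries a group on the deposited scale. Tpp1 stands out after carrageenan at 1.38 and lies at 0.11 after saline, and Gm2a lies at -0.97 after carrageenan and -0.92 after saline.

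Whether carrageenan acted differently in the genotypes was tested as the difference of its effects. None of the 30 genes passed (0% of 10243 genes tested), in limma, edgeR or DESeq2, and 1 of them had an unadjusted p under 0.05, against 2.38% of all genes. This was Tpp1, whose effect in cKO exceeded that in Flox by 1.27 ± 0.53 on the log2 scale (limma adjusted p = 0.967). Over the alternatives its difference ranged from 1.01 to 1.62. The next by p were Ctsd (-0.73 ± 0.53) and Lamp2 (0.49 ± 0.36), whose carrageenan effects had opposite signs in the 2 genotypes and did not pass in either. The median difference was -0.14, beside -0.15 for all genes. The effects had the same sign in both genotypes for 23 of the 30 genes (76.7%), and for 68.0% of all genes tested.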

How the data were processed

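Per the labels, 12 libraries of pooled sorted cells were made with a 3′ mRNA kit that carries unique molecular identifiers. GRCm38, STAR and cutadapt are named in the submitters' processing notes, and no source names their versions, the counter or the strand setting. The signal in the authors' deposited count tables is a normalized count: each library's reads over a size factor of its own. Saline and carrageenan were normalized apart. All values were whole multiples of 1 step per library (100% within 0.001), from which reads were recovered. Entries that are no genes (121) held 0.170 to 2.23% of reads and were left out. The authors' deposited tables also give, per the file headers, log2 fold changes of cKO over Flox, a test score, and p-values.

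A gene entered the test where 3 or more libraries reached 5. limma with a mean trend was run on log2(value + 1), which understates changes of low genes; Benjamini-Hochberg adjusted p under 0.05 over all genes counted as passing. For carrageenan against saline all 12 libraries were fitted together, on a common scale set by medians of ratios over 6501 genes. Genotypes were compared within a treatment (6 libraries), and the difference of effects over 12 libraries, on the deposited scale. As alternatives, a pseudocount of 5, no filter, edgeR and DESeq2 on recovered reads, the other scale, a replicate block, a fit on all 12 libraries and leaving out each library were run; leaving out both libraries that stood apart was added after seeing the data. Versions were DESeq2 1.42.0, limma 3.58.1, edgeR 4.0.16 and R 4.3.3, and the fits were tested on simulated data. Replicates were separate pools, every pair differed by more than counting error, and p-values measure the spread between pools. The average over both genotypes was added after seeing the data.

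The same mouse numbers name saline and carrageenan pools in both genotypes, so the pools may be paired. In cKO, deviations of all 3 same-numbered pairs correlated (0.200, 0.336 and 0.434). In Flox the correlations were 0.009, -0.018 and 0.109, which cannot exclude a pairing. In cKO, saline 5-8 and carrageenan 1-4, of different numbers, reached 0.236. The reported fits used group means without a replicate block, so their SEs and p-values leave any pairing unused. Members and lists were chosen with earlier results of these data known. Named with statistics were all members past the threshold; where fewer than 3 passed, also those without overlap, up to 6 by p. Values in every library were given for the 2 members of smallest p in each role and for some further members; other list genes, up to 3 passing per list, have mean ± SD or the fold change. RefSeq promoters were searched with exact letters, and positions are on GRCm38 (GENCODE vM21).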

Additional observations from a re-analysis of the deposited data

How the results depend on the processing

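No gene changed sign under an alternative in a comparison whose threshold or lack of overlap named it; other members did. Within Flox, the count of the 30 genes called for carrageenan against saline was 3. It was 5 with a pseudocount of 5, 1 without the filter, 1 with edgeR, 6 with DESeq2 and 5 on the deposited scale. With the replicate block it was 7 (5 lower, 2 higher), although deviations of same-numbered Flox pools hardly correlated. Leaving out a library gave 0 to 5: 0 without Flox carrageenan 4-7, 1 without Flox saline 4-7, Flox carrageenan 1-3 or cKO carrageenan 5-8, and 5 without cKO carrageenan 9-12. Within cKO, the count of 0 became 1 with edgeR, 4 with DESeq2 and 1 without both libraries that stood apart, and leaving out a library gave 0 to 1 (1 without Flox saline 1-3). The replicate block left it at 0 and changed no other call by over 1.5 times (9 in place of 8 over both genotypes). Over both genotypes, leaving out a library gave 5 to 10 calls, with 5 without Flox carrageenan 4-7. For cKO against Flox in carrageenan it gave 0 to 4. The causes of these shifts were not tested. Over all genes, the calls in Flox were 418 without the filter, 615 with edgeR (6.01%) and 864 with DESeq2 (8.22% of those with an adjusted p), beside 734 (7.17%) as reported. In cKO they were 143 without the filter, 733 with edgeR and 852 with DESeq2 (271 as reported). Totals over all genes are not given here for the pseudocount of 5, the deposited scale and the replicate block. Leaving out a library gave 350 to 1080 calls in Flox, 84 to 521 in cKO and 790 to 1549 over both genotypes (1194 as reported). For cKO against Flox, where limma called 0, DESeq2 called 19 in saline and 11 in carrageenan, and limma 420 in carrageenan without cKO carrageenan 9-12. On the deposited scale the median of all genes shifted by -0.085 in Flox, -0.109 in cKO and -0.095 over both, and the 5 sugar and lipid hydrolases stayed below 0 in each. Without Flox saline 4-7, 4 of these 5 were below 0 in Flox, and Asah1 went from -0.30 to 0.0012. Depth limits Gaa, Tfeb and Mcoln1 in the shallow Flox libraries, where single reads move a value.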

Other observations

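In the authors' deposited tables of cKO over Flox, none of the 30 genes had an adjusted p under 0.05, of 30 with such a p in saline and 28 in carrageenan (Gaa and Tfeb had none). Over all genes with an adjusted p, 20 of 7232 (0.277%) were under 0.05 in saline and 5 of 5526 (0.0905%) in carrageenan. The lowest among the 30 was 0.421 in saline (Gm2a, log2 fold change -0.84) and 0.150 in carrageenan (Tpp1, 1.13). By the authors' deposited tables, an unadjusted p under 0.05 was reached by 2 of the 30 genes in saline (Gm2a and Grn), beside 3.78% of 19563 genes with a p. In carrageenan it was reached by 5 (Tpp1, Ctsl, Ctss, Grn and Atp6v1a), beside 4.21% of 19616. Only 7232 and 5526 of these genes had an adjusted p, so both shares cover many genes unlike the 30. Among genes that passed the filter on low values, the limma shares were 5.42% in saline and 9.8% in carrageenan.

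Among the other pathway genes, 6 of 118 had an unadjusted p under 0.05 in cKO against Flox after saline, beside 5.42% of all genes. After carrageenan 14 of 115 did, beside 9.8% of all genes, and none passed the adjusted test in either treatment. Rraga, a GTPase subunit that recruits the growth kinase mTORC1 to lysosomes, stood at 53.0 ± 31.9 normalized counts in Flox and 154 ± 78.5 in cKO after saline (1.66 ± 0.60, limma adjusted p = 0.683). After carrageenan it stood at 71.1 ± 15.3 and 146 ± 48.5 (0.99 ± 0.32, limma adjusted p = 0.497). Its groups did not overlap in either treatment. Rraga and the genes of this paragraph were chosen after their values were seen. The proton pump subunit gene Atp6v1d stood at 56.5 ± 12.0 in Flox carrageenan and 105 ± 11.5 in cKO carrageenan (0.91 ± 0.27, limma adjusted p = 0.497). Of the 16 other pump subunits 13 were above 0 after carrageenan, beside 5168 of 9151 genes tested. After saline 15 of the 16 were above 0, beside 6096 of 9371 genes. The pump subunit gene Atp6v0c was lower in cKO after saline without overlap (-1.98 ± 0.62, limma adjusted p = 0.683). Depth differed between the genotypes, and its part in these differences was not tested.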
